A study of Homo sapiens with 11 samples.

Results

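The genes described here are 10 targets and regulators of the integrated stress response: ATF4, ATF3, DDIT3, ASNS, TRIB3, CHAC1, SESN2, PSAT1, PPP1R15A and HSPA5. They were found by symbol among the 58699 genes of the authors' deposited total RNA table, where each of the 10 has 1 entry. HCT116, an established colorectal cancer cell line, carried an siRNA to luciferase as control (siLuc) or one to Staufen1 (siStau1), a protein that binds double-stranded RNA. Cells of each kind received the solvent DMSO or decitabine (DAC), an inhibitor of DNA methyltransferases, at 500 nM for 5 days. Each of the 4 groups had 2 total RNA libraries, all from this 1 cell line. Values are in FPKM (fragments scaled to transcript length and library size), with 1 value per group and none per library. The depth is therefore unknown, and a standard deviation is lacking throughout.

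In the integrated stress response, kinases that sense double-stranded RNA, unfolded protein in the endoplasmic reticulum (ER), amino acid shortage or heme shortage phosphorylate the translation factor eIF2. General translation then drops while ATF4 mRNA is translated better, so ATF4 protein can rise without a change in its mRNA. Its target genes can report its activity, but several of them also respond to other factors, so their mRNA alone does not measure it. EIF2AK2 (PKR) is the kinase of this family that binds double-stranded RNA. In bulk RNA, fewer cells expressing a gene and less RNA per cell cannot be told apart.

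ATF4 binds, with C/EBP partners, to an element whose core is TGATGNAA. ER stress factors bind the ER stress response element (ERSE), and ATF/CREB factors bind TGACGTCA. RefSeq promoter windows (GRCh38.p14, 250 bases before to 50 after a transcript start) were found for all 10 genes, as 16 windows, and both strands were searched. TGATGNAA was present in 3 of the 10 genes (ATF3, ASNS and CHAC1). By window, that was 3 of their 16 windows, beside 3.62% of all 35116 promoter windows. Windows of ATF4, DDIT3, ASNS and TRIB3 overlap others of the same gene, so the 16 are not separate promoters. TGACGTCA was present in 1 of the 16 windows (PPP1R15A) and in 1.85% of all windows. The ERSE was present in 1 of the 16 (HSPA5) and in 0.0769% of all windows. The 3 sequences below are the 250 bases upstream of the start. They belong to the member called in all 4 main comparisons (PPP1R15A) and one of the pair that lay lower with DAC (ASNS). The third is the member with the largest ratio of deposited values for DAC over DMSO in siLuc cells (CHAC1). They are written 5′ to 3′ on the strand of the gene, with the motif in capitals.
PPP1R15A: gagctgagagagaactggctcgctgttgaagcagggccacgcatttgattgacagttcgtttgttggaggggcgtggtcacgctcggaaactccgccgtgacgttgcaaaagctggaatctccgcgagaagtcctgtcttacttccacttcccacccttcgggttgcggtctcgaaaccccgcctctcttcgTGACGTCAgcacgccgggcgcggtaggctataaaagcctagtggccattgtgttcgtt
CHAC1: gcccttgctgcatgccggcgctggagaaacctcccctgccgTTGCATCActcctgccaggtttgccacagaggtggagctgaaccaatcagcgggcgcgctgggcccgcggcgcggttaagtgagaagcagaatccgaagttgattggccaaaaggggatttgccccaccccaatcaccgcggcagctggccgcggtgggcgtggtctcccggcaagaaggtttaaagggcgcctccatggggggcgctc
ASNS: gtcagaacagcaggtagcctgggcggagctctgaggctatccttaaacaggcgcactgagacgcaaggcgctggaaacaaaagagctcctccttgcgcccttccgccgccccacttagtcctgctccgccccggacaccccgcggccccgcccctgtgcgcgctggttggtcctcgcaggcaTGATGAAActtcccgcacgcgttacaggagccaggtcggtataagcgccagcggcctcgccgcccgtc

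These stretches lie at chr19:48872171-48872420 on the plus strand (PPP1R15A), chr15:40953221-40953470 on the plus strand (CHAC1) and chr7:97872409-97872658 on the minus strand (ASNS). Counted from the first transcribed base as 1, the marked motif runs from −58 to −51 in PPP1R15A and from −68 to −61 in ASNS. In CHAC1 it runs from −209 to −202 and lies on the opposite strand as TGATGCAA. The ATF3 match was TGATGGAA, from −191 to −184 of its upstream start, and the HSPA5 match was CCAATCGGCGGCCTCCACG, from −66 to −48. CpG dinucleotides numbered 4 and 1 in the ATF3 windows, which begin at 212565157 and 212614768 of chromosome 1. Windows of the other genes held from 24 to 38, against a median of 14 over all windows. Transcript starts outside these windows, of ATF3 or of any other member, were not examined. Methylation of these promoters was not analysed here, and a motif match is a description of the letters only.

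The targeted gene and the cell identity were examined before the members. STAU1 went from 35.5 FPKM in DMSO to 33.7 with DAC in siLuc cells, and from 30 to 27.1 FPKM in siStau1 cells. Its log2 ratio of siStau1 over siLuc was −0.24 in DMSO and −0.31 in DAC, and neither was called in the authors' deposited table (q-values 0.767 and 0.685). The siStau1 groups are therefore named by their label, and the STAU1 mRNA lay only slightly lower in them. Epithelial and colon markers had at least 1 FPKM for 7 of 9 genes in each group. Their summed level was 2602 FPKM without and 8205 FPKM with DAC in siLuc cells, and 2152 and 5957 FPKM in siStau1 cells, with median log2 ratios over the genes tested of 1.46 and 1.42. In the authors' deposited table KRT19, KRT20 and CDX1 were called higher with DAC in both arms, KRT18 higher in siStau1 alone and EPCAM lower in siLuc alone, and KRT20 was called higher in siStau1 than in siLuc under DAC. Markers of blood, stromal and endothelial cells summed over 10 genes to 5.39 FPKM in DMSO and 35.7 with DAC in siLuc cells, and to 2.57 and 21.4 FPKM in siStau1 cells. PECAM1 was called higher with DAC in siLuc, and PTPRC, COL1A1 and VWF in siStau1, in the authors' deposited table. CD68 was the highest of them in siLuc DAC, at 17.1 FPKM, and PTPRC was listed at 0 for each DMSO group. Both marker lists lay higher with DAC alongside most of the members, and their part in the members' differences was not tested.

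Levels of the transcription factors differed widely. ATF4 (ENSG00000128272.14, GRCh38 chromosome 22, 39519695 to 39522685) stood at 303 FPKM in DMSO and 316 with DAC in siLuc cells, and at 204 and 220 FPKM in siStau1 cells. Both siStau1 groups lay below both siLuc groups, and DAC and DMSO stood close together in each. ATF3 (ENSG00000162772.16, chromosome 1, 212565334 to 212620777), a stress-induced factor of the same family, had 28.7, 96.0, 12.9 and 60.8 FPKM in the same order (siLuc DMSO, then its DAC group, then the same pair in siStau1), so both DAC groups lay above both DMSO groups. DDIT3 (CHOP, ENSG00000175197.12, chromosome 12, 57516588 to 57521737), which promotes cell death under lasting stress, had 22.6, 37.6, 9.03 and 21.7 FPKM. DDIT3 overlaps MARS over 982 bases and MBD6 over 1028 bases on the other strand, and the table gives it, like ASNS, a locus wider than the gene. The strand setting of the counting is not given in the sources used here, so the DDIT3 values are uncertain. On the same strand, AC022506.1 overlaps DDIT3 over 2769 bases and AC079781.5 overlaps ASNS over 20425 bases. AC079781.5 was listed at 1.03 FPKM in siLuc DAC, its highest group. How fragments were shared between overlapping genes was not examined.

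Among the feedback regulators, PPP1R15A (GADD34, ENSG00000087074.7, chromosome 19, 48872392 to 48876057), which directs a phosphatase to eIF2, stood at 34.6 FPKM without and 121 FPKM with DAC in siLuc cells, and at 14.8 and 58.6 FPKM in siStau1 cells. TRIB3 (ENSG00000101255.10, chromosome 20, 362835 to 397559), a pseudokinase that restrains ATF4, stood at 14.8 and 34.5 FPKM, and at 11.2 and 16.0 FPKM, in that order. SESN2 (ENSG00000130766.4, chromosome 1, 28259527 to 28282491), which restrains mTORC1 and is also a p53 target, stood at 2.67 and 14.1 FPKM, and at 2.26 and 6.53 FPKM. In all 3 genes siLuc DAC was the highest group and siStau1 DMSO the lowest. CHAC1 (ENSG00000128965.12, chromosome 15, 40952962 to 40956519), an enzyme that degrades glutathione, followed the same order, with 2.83 and 19.2 FPKM in siLuc cells and 1.17 and 6.72 FPKM in siStau1 cells.

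The amino acid enzymes had another order. ASNS (ENSG00000070669.16, chromosome 7, 97852118 to 97872542), which makes asparagine, stood at 136 FPKM without and 70.0 FPKM with DAC in siLuc cells, and at 83.3 and 54.5 FPKM in siStau1 cells. PSAT1 (ENSG00000135069.13, chromosome 9, 78297143 to 78330093), of serine synthesis, had 60.9, 30.3, 53.3 and 28.6 FPKM. For both genes siLuc DMSO was the highest group and siStau1 DAC the lowest. HSPA5 (BiP, ENSG00000044574.7, chromosome 9, 125234853 to 125241330), the ER chaperone that ATF6 and XBP1 also induce, had 87.9, 145, 72.8 and 112 FPKM, with both DAC groups above both DMSO groups. Named pseudogene copies of ATF4, ASNS and PSAT1 reached at most 4.43 FPKM (ATF4P3 in siLuc DMSO). By level in siLuc DMSO the order was ATF4, ASNS, HSPA5, PSAT1, PPP1R15A, ATF3, DDIT3, TRIB3, CHAC1 and SESN2. Without values per library, whether neighbours in this order differ beyond their spread cannot be given.

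**Figure D1:**
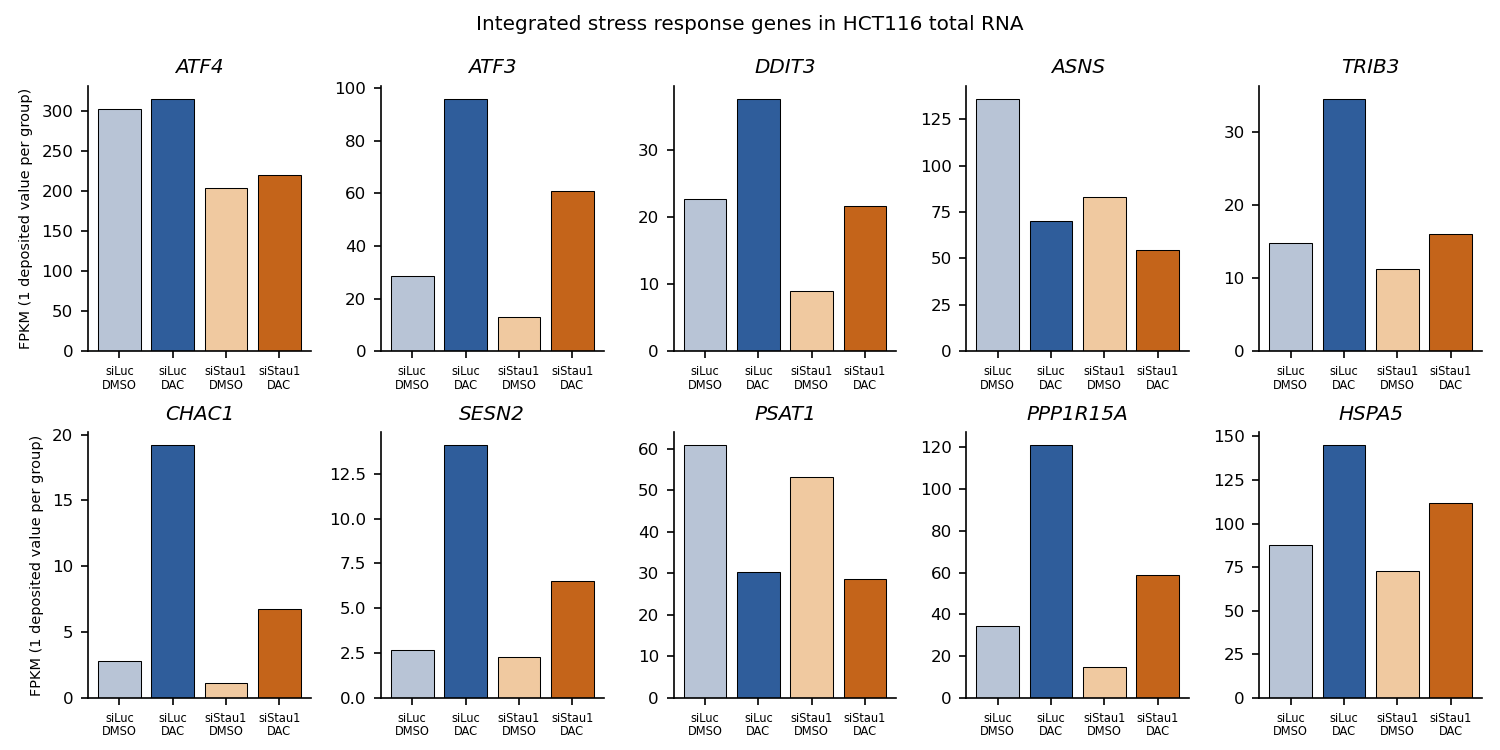
Bars give the 1 deposited FPKM value of each group for the 10 genes, on a linear axis from 0 that differs between panels. ATF4, ATF3, DDIT3, TRIB3, CHAC1, SESN2, PPP1R15A and HSPA5 stand highest in siLuc DAC, while ASNS and PSAT1 stand highest in siLuc DMSO.

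Decitabine in control cells was addressed by siLuc DAC against siLuc DMSO. ATF3, PPP1R15A, TRIB3, SESN2 and CHAC1 rose, PSAT1 fell, and ATF4 mRNA itself differed little. In the authors' deposited table (Cuffdiff, q-value under 0.05), 5 of the 10 genes were called higher, against 8.71% of the 17504 genes tested, and 1 was called lower, against 4.78%, with 13.5% of genes called either way. CHAC1 rose 6.58-fold (q-value 0.00162 in the authors' deposited table), SESN2 5.12-fold (0.00162), PPP1R15A 3.50-fold (0.00162), ATF3 3.34-fold (0.0109) and TRIB3 2.33-fold (0.0101). The q-value of 0.00162 is the smallest in the authors' deposited table, so it does not rank the genes that share it. Folds are of FPKM with a pseudocount of 0.1 added. CHAC1 and SESN2 were low in DMSO. A pseudocount of 1 took their log2 ratios from 2.72 to 2.40 and from 2.36 to 2.04. PSAT1 fell by 1.01 on the log2 scale (q-value 0.0408 in the authors' deposited table). ASNS had a log2 ratio of −0.96, HSPA5 of 0.72, DDIT3 of 0.73 and ATF4 of 0.06, and were not called (0.0614, 0.162, 0.885 and 0.950, as q-values of the authors' deposited table). Over the 10 genes the log2 ratios had a median of 0.98, beside 0.23 over all genes tested.

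In siStau1 cells the same comparison showed ATF3, CHAC1 and PPP1R15A higher with DAC. The authors' deposited table called 3 of the 10 genes higher, against 4.56% of 16979 genes tested, and 0 lower, against 2.89%, with 7.46% called either way. These 3 were called higher in both arms, which 3.39% of the 15956 genes tested in both were. At an unadjusted Cuffdiff p under 0.05, 6 of the 10 passed, among them PSAT1, beside 19% of all genes tested. CHAC1 rose 5.39-fold (q-value 0.0332 in the authors' deposited table), ATF3 4.69-fold (0.00415) and PPP1R15A 3.94-fold (0.00162). With a pseudocount of 1, the log2 ratio of CHAC1 went from 2.43 to 1.84, below those of ATF3 (2.15) and PPP1R15A (1.91). SESN2, with a 2.81-fold difference, lay just outside the limit in the authors' deposited table (0.0507). TRIB3 had a log2 ratio of 0.51 (0.526 in the authors' deposited table), ASNS −0.61 (0.361) and PSAT1 −0.90 (0.0741). The median log2 ratio was 0.94, beside 0.11 over all genes tested.

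How far the DAC log2 ratio of a gene in siStau1 exceeded its ratio in siLuc was computed as a difference, which with 1 value per group is described and not tested. It was lowest for SESN2 (−0.87) and TRIB3 (−0.71), then CHAC1 (−0.29) and HSPA5 (−0.10). It lay above 0 for ATF4 (0.05), PSAT1 (0.11), PPP1R15A (0.17), ASNS (0.35), ATF3 (0.49) and DDIT3 (0.52). The median over the 10 genes was 0.08, beside −0.02 over the 15956 genes tested in both arms. That SESN2 and TRIB3 were called in siLuc and not in siStau1 does not by itself show a difference between the arms.

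**Figure D2:**
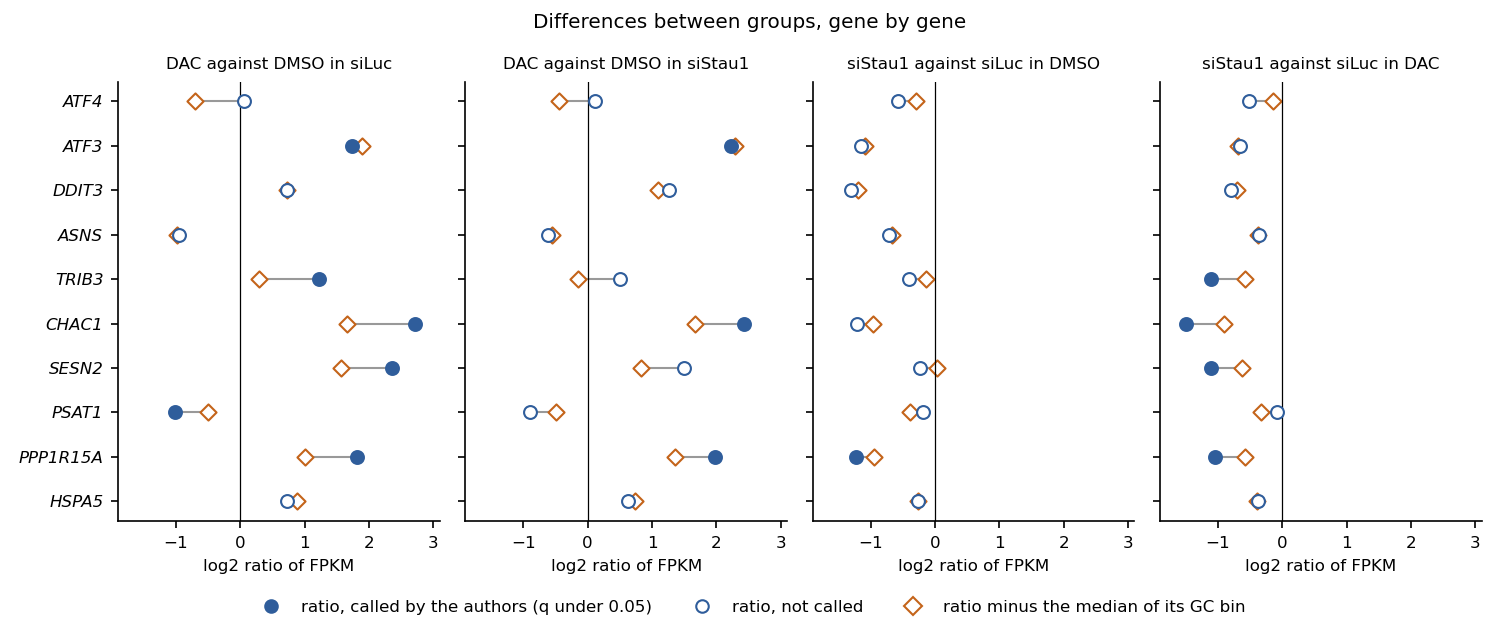
Circles give each gene's log2 ratio of FPKM in the 4 comparisons, filled where the authors' q-value was under 0.05, and diamonds give the ratio minus the median of genes of like GC content. In both panels of siStau1 against siLuc all 10 circles lie below 0, and in both DAC panels ASNS and PSAT1 alone lie below 0.

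The siRNA groups without decitabine were compared as siStau1 over siLuc in DMSO. All 10 genes had a log2 ratio below 0, from −1.31 (DDIT3) to −0.19 (PSAT1), with a median of −0.64 beside −0.02 over all genes tested. PPP1R15A alone was called: it was 2.33-fold lower in siStau1 (log2 ratio −1.22, q-value 0.0201 in the authors' deposited table). That is 1 of 10 genes lower, against 0.466% of 15893 tested genes, and 0 higher, against 0.333%, with 0.799% called either way. ATF3 and CHAC1 had log2 ratios of −1.15 and −1.21 and were not called (q-values 0.315 and 0.404 in the authors' deposited table). When the deposited p-values were adjusted within this comparison only, the PPP1R15A value was 0.203 and 0 of the 10 genes passed. At an unadjusted Cuffdiff p under 0.05, 2 of the 10 passed, PPP1R15A and ASNS, beside 4.3% of all genes tested.

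Under decitabine, siStau1 against siLuc showed CHAC1, SESN2, TRIB3 and PPP1R15A lower in siStau1. The authors' deposited table called these 4 of 10 genes lower, against 0.469% of 17263 genes tested, and 0 higher, against 0.434%, with 0.904% called either way. CHAC1 was 2.82-fold lower (q-value 0.0460 in the authors' deposited table), TRIB3 2.16-fold (0.0214), SESN2 2.14-fold (0.0429) and PPP1R15A 2.07-fold (0.0109). The other 6 genes also lay below 0, with log2 ratios from −0.79 (DDIT3) to −0.08 (PSAT1). The median was −0.72, beside −0.14 over all genes tested. These 4 calls depended on the adjustment over all 6 comparisons of the table. Adjusted within this comparison only, the values were 0.227 for PPP1R15A, 0.266 for TRIB3, 0.367 for SESN2 and 0.380 for CHAC1, and 0 genes passed in the whole table, with 4 of the 10 members at an unadjusted Cuffdiff p under 0.05, beside 6.95% of all genes tested.

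The comparisons of siStau1 with siLuc in DMSO and in DAC share no library. In both, all 10 genes lay below 0 on the deposited scale, while 37% of the 14630 genes tested in both did so. PSAT1 in DAC, at −0.08, turned to 0.03 when centred on the median of all genes and to 0.06 when groups were rescaled to 1 sum over protein-coding genes, which leaves 9 of 10. The DAC comparison in siLuc shares its control libraries with that of siStau1 against siLuc in DMSO and its treated libraries with that in DAC, so the rise in siLuc and the lower level in siStau1 are not independent measurements. Set against siLuc DMSO, from which it differs in siRNA and drug, the siStau1 DAC group had ASNS 2.50-fold lower and PSAT1 2.13-fold lower (q-values 0.00525 and 0.0180 in the authors' deposited table). These were 2 of 10 called lower, against 0.964% of 16909 genes tested, and 0 were called higher, against 4.02% (4.98% either way), with 6 of the 10 at an unadjusted Cuffdiff p under 0.05, beside 13.6% of all genes tested. SESN2 (log2 ratio 1.26), CHAC1 (1.22) and ATF3 (1.08) lay above siLuc DMSO there without being called (0.0643, 0.247 and 0.183 in the authors' deposited table).

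The log2 ratios in all 4 comparisons moved with the GC content of transcripts. Protein-coding genes with at least 1 FPKM were placed in 20 GC bins. Between the bin poorest and the bin richest in GC, the median ran from −0.95 to 1.20 (DAC in siLuc), −0.72 to 0.86 (DAC in siStau1), 0.42 to −0.24 (siStau1 over siLuc in DMSO) and 0.61 to −0.64 (siStau1 over siLuc in DAC). The longest transcripts of CHAC1 (62.6% GC), TRIB3 (60.9%), SESN2 (59.5%), PPP1R15A (58.8%) and ATF4 (56.7%) are rich in GC. Those of DDIT3 (49.7%), ASNS (47.0%), ATF3 (46.7%), HSPA5 (46.0%) and PSAT1 (42.3%) are lower. The 4 genes called lower in siStau1 under DAC are thus the 4 with the highest GC content of the 10.

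Each gene was therefore also read against the median of its own GC bin. For DAC in siLuc, ATF3 moved from 1.74 to 1.89, CHAC1 from 2.72 to 1.65, SESN2 from 2.36 to 1.57, PPP1R15A from 1.81 to 1.01 and PSAT1 from −1.01 to −0.51. TRIB3 moved from 1.22 to 0.29, which places it near other transcripts of its GC content. ATF4 moved from 0.06 to −0.70 in siLuc and from 0.11 to −0.45 in siStau1. For DAC in siStau1, ATF3 (2.29), CHAC1 (1.67) and PPP1R15A (1.35) stayed above 0, while TRIB3 went to −0.15. For siStau1 over siLuc under DAC, the 4 called genes moved to −0.91 (CHAC1), −0.63 (SESN2), −0.58 (TRIB3) and −0.58 (PPP1R15A), and all 10 genes stayed below 0. In DMSO, PPP1R15A was at −0.94 and SESN2 at 0.03, so 9 of 10 genes were below 0 in both comparisons of siStau1 with siLuc, beside 28.4% of 10686 protein-coding genes with at least 1 FPKM. These values carry no test.

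**Figure D3:**
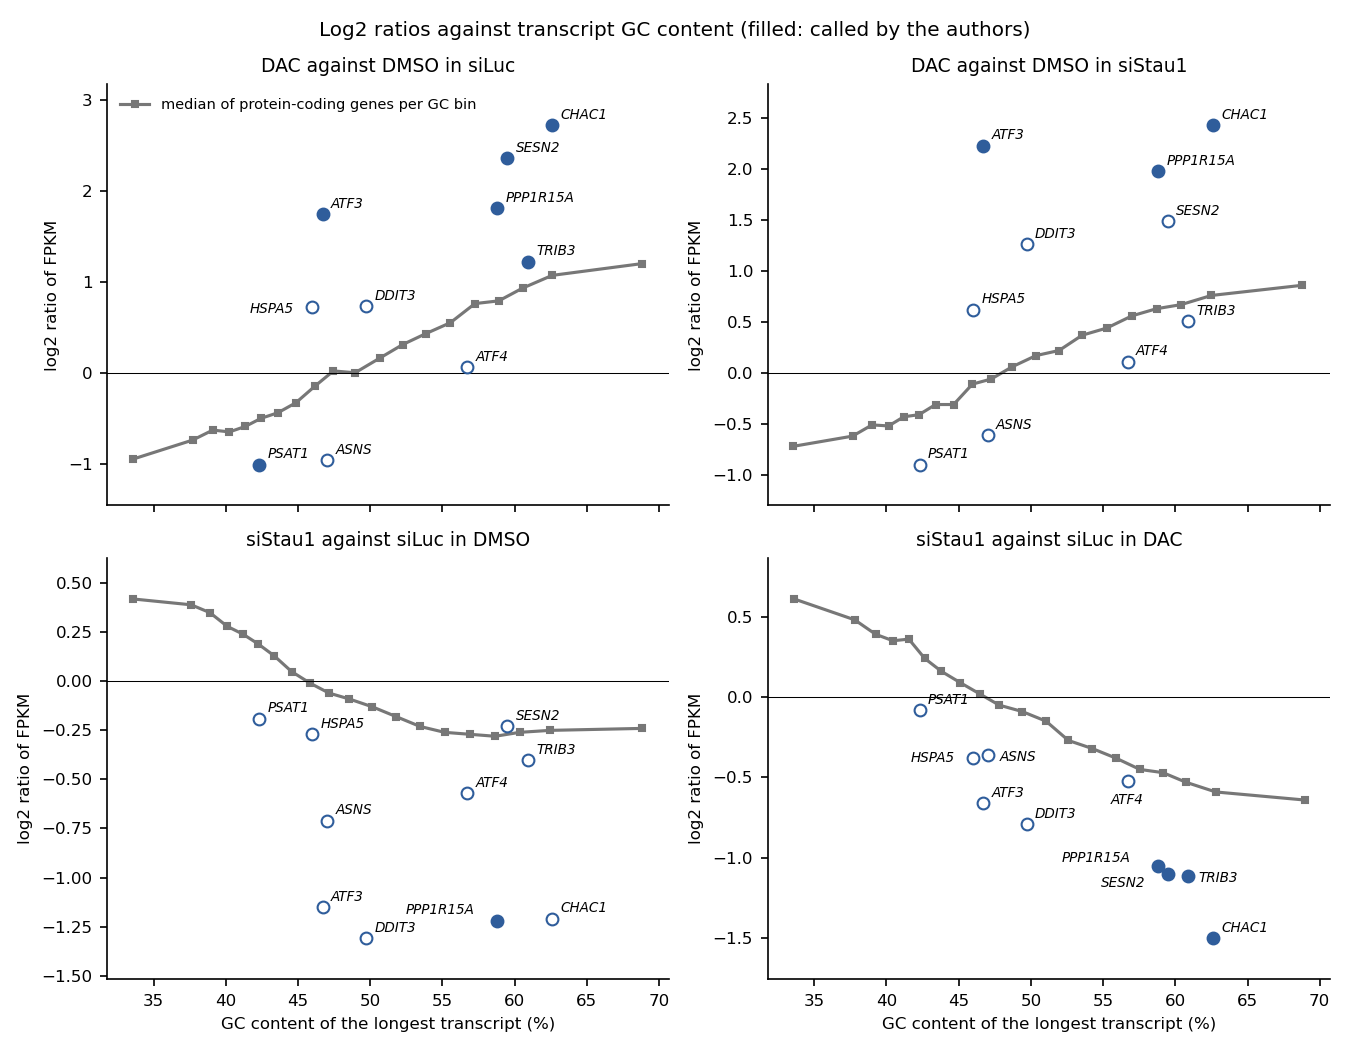
Each panel plots the log2 ratio of FPKM against the GC content of the longest transcript (%), with the 10 genes as circles (filled where called) and the median of each of 20 GC bins of protein-coding genes as a grey line. In both DAC panels ATF3, CHAC1 and PPP1R15A lie above the line and ASNS, PSAT1 and ATF4 below it, and in the DAC panel of siStau1 against siLuc all 10 genes lie below the line.

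Pattern likeness was measured as the Euclidean distance between log2 profiles over the 4 groups, each centred on its mean, to 86 genes of the pathway lists below with at least 1 FPKM in every group. ATF4 was nearest to YARS (0.09), a tRNA synthetase gene, and HSPA5 to IER3 (0.09) and HYOU1 (0.10), an ER chaperone. SESN2 was nearest to FOSL1 (0.11), PSAT1 to PSPH (0.16), the next enzyme of serine synthesis, and TRIB3 to BBC3 (0.18). DDIT3 was nearest to SLC3A2 (0.24), ASNS to PSPH (0.34), PPP1R15A to STC2 (0.45), ATF3 to ATF5 (0.51) and CHAC1 to FOS (0.68). IER2, of the list of immediate early genes, was about as near to PPP1R15A (0.45) and to ATF3 (0.52). Within the 10, ATF3 and PPP1R15A were nearest to each other (0.30), as were ASNS and PSAT1 (0.45).

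The eIF2 kinases, the subunits of eIF2 and eIF2B, the phosphatase subunit PPP1R15B and the kinase inhibitor DNAJC3 formed a list of 14 genes. In siLuc, 1 was called lower with DAC in the authors' deposited table, EIF2S3, a subunit of eIF2, which went from 195 to 89.1 FPKM (q-value 0.00525). In the other 3 comparisons 0 were called, with 2, 0 and 0 at an unadjusted Cuffdiff p under 0.05 for DAC in siStau1 and for siStau1 against siLuc in DMSO and in DAC. EIF2AK2, chosen here for its role as the double-stranded RNA sensor, stood at 75.3 FPKM without and 48.0 FPKM with DAC in siLuc cells, and at 60.2 and 56.3 FPKM in siStau1 cells, and was called in none of the comparisons.

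Other ATF4 targets of amino acid supply did not move as 1 group. Of 10 genes of amino acid synthesis and one-carbon metabolism, 8 or 9 were tested in each of the 4 main comparisons. None of them was called, and 3, 0, 0 and 1 had an unadjusted Cuffdiff p under 0.05. Of 8 transporters, SLC7A5, the light chain of a leucine transporter, was called higher with DAC in siLuc and lower in siStau1 than in siLuc under DAC in the authors' deposited table (q-values 0.00162 and 0.0388). Its level was 27.9 FPKM without and 83.9 FPKM with DAC in siLuc cells, and 20.8 and 44.3 FPKM in siStau1 cells. All 8 transporters lay below 0 in siStau1 against siLuc under DAC, as did 58.1% of all genes tested. Their median there was −0.86, and −0.55 after centring within GC bins. In the 4 main comparisons 4, 2, 1 and 4 of the 8 had an unadjusted Cuffdiff p under 0.05. Beside these, 28.9%, 19%, 4.3% and 6.95% of all genes tested did. Of 11 genes of tRNA charging and export, EPRS was called lower with DAC in siLuc in the authors' deposited table, from 90.8 to 43.8 FPKM (q-value 0.0434). None of the 11 was called elsewhere, with 1, 3 and 1 at an unadjusted Cuffdiff p under 0.05 for DAC in siStau1 and for siStau1 against siLuc in DMSO and in DAC.

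The list of 15 other ATF4-linked regulators and effectors held changes in both directions. GDF15, a secreted stress cytokine, rose with DAC from 21.8 to 86.5 FPKM in siLuc cells and from 18.0 to 60.4 FPKM in siStau1 cells (q-value 0.00162 in each in the authors' deposited table). STC2, a secreted glycoprotein, rose in siStau1 from 5.16 to 19.9 FPKM (0.0180 in the authors' deposited table). DDIT4, which restrains mTORC1, fell with DAC in siLuc from 62.9 to 24.4 FPKM and was lower in siStau1 DMSO at 23.4 FPKM, as the authors' deposited table called (0.00415 and 0.00525). In siStau1 against siLuc under DAC 0 of the 12 tested were called, with 1 at an unadjusted Cuffdiff p under 0.05.

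ER chaperones and targets of ATF6 or XBP1, a list of 21 genes to which HSPA5 is close in function, showed 3 called higher and 2 lower with DAC in siLuc in the authors' deposited table. SDF2L1 went from 16.3 to 46.8 FPKM (q-value 0.0134), ERN1, the ER stress sensor IRE1, from 3.32 to 11.6 (0.0366) and XBP1, the factor it activates, from 67.0 to 128 (0.0434). HSP90B1 went from 426 to 202 FPKM (0.0208 in the authors' deposited table) and PDIA6 from 126 to 67.2 (0.0460). In siStau1, XBP1 alone was called, from 48.4 to 97.4 FPKM (0.0348 in the authors' deposited table). In siStau1 against siLuc 0 were called, with 0 in DMSO and 3 in DAC at an unadjusted Cuffdiff p under 0.05.

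Paralogs of the members, a list of 12 genes, had 2 calls with DAC in siLuc in the authors' deposited table. HSPA1A rose from 1.33 to 9.32 FPKM (q-value 0.00162), a value uncertain because HSPA1B is nearly identical, and HSPA9 fell from 318 to 164 FPKM (0.0291). SESN1, SESN3, CHAC2, TRIB2 and PPP1R15B, named after their values were seen because each has a member as its near relative, were not called in any comparison. Their log2 ratios for DAC in siLuc were −0.25, −1.49, −2.30, −0.56 and 0.32 in that order. In the other 3 comparisons 0 of 12 were called, with 3, 2 and 0 at an unadjusted Cuffdiff p under 0.05.

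Immediate early genes, which respond to many stimuli as ATF3 and PPP1R15A do, were called higher with DAC for 7 of 11 in siLuc and 5 of 11 in siStau1 in the authors' deposited table. Their median log2 ratios were 2.45 and 1.61, and 1.52 and 0.94 after centring within GC bins. JUN rose with DAC from 3.18 to 34.9 FPKM in siLuc cells and from 1.45 to 18.4 FPKM in siStau1 cells (q-value 0.00162 in each in the authors' deposited table). FOS, FOSL1, DUSP1, EGR1, IER2 and KLF6 were the others called in siLuc, and DUSP1, EGR1, IER2 and KLF6 were also called in siStau1. In siStau1 against siLuc all 11 lay below 0 in DMSO and in DAC, with medians of −0.41 and −0.93. After centring within GC bins 10 of 11 did in each, with medians of −0.32 and −0.54. There 0 were called, with 1 in DMSO and 6 in DAC at an unadjusted Cuffdiff p under 0.05.

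**Figure D4:**
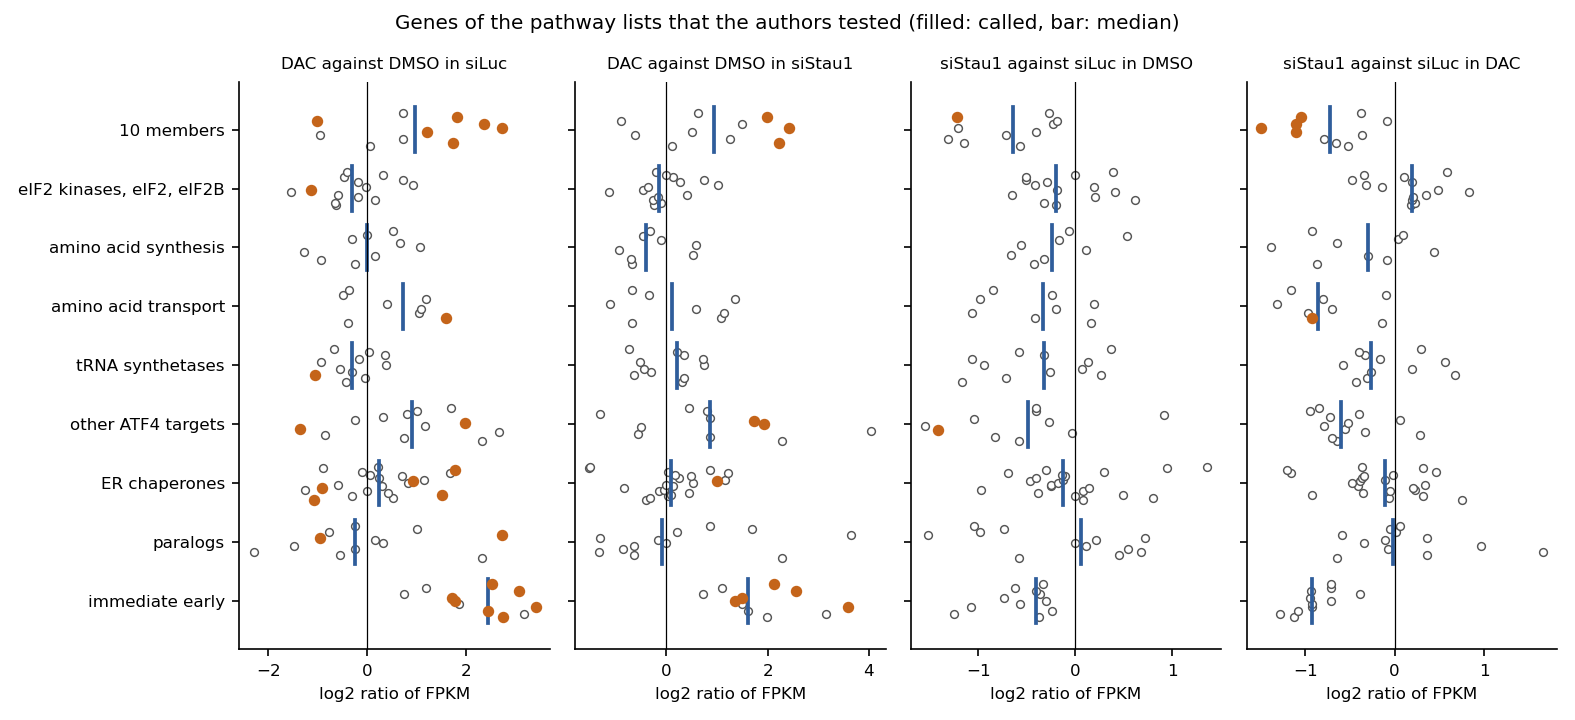
Points give the log2 ratio of FPKM for each gene of a list that the authors tested, filled where their q-value was under 0.05, and bars give the median of each list. With DAC in siLuc, 5 of 10 members and 7 of 11 immediate early genes are filled above 0, and 0 of the amino acid synthesis genes are filled in any of the 4 main comparisons.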

How the data were processed

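Total RNA of 8 libraries (2 per group) was analysed as the authors' deposited table of FPKM values, p-values and q-values, with 1 FPKM value per group and 6 pairwise comparisons. The submitters' processing notes name HISAT2 2.1.0, Cuffdiff 2.2.1 and genome build hg38, with no order of steps, and the labels' protocols name a kit that keeps strand and removes ribosomal RNA. The deposited q-value equals a Benjamini-Hochberg adjustment over all 102180 tests (largest gap 5.3e-07). A gene was called at the authors' q-value under 0.05, for the 10 members and every other gene.

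The table has no values per library, so the authors' calls stand in for a test. Log2 ratios were computed with a pseudocount of 0.1 in Python 3.11.15 with pandas 2.3.3 and NumPy 2.4.6. GC content came from the longest GENCODE release 29 transcript of each gene, which held all 58699 identifiers. GC centring subtracted the median of protein-coding genes with at least 1 FPKM in the same of 20 bins. It was tried on data simulated with a straight GC trend and less spread than the real genes. That trial checks the computation and cannot show how well centring works on these data. The members and all lists were chosen with earlier results of these data known. In each list, genes called in any of the 4 main comparisons were named. Nothing shows that the 2 libraries of a group were separate cultures. The deposited fold changes and scores, and the J2 tables of repeat elements, were not used.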

Additional observations from a re-analysis of the deposited data

How the results depend on the processing

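No paired analysis was possible because the table holds 1 value per group, so fits with a replicate block, without single replicates or with DESeq2 were not run. At a q-value limit of 0.01, the members called with DAC in siLuc numbered 3 higher (5 at 0.05) and 0 lower (1 at 0.05), those higher with DAC in siStau1 2 (3), since CHAC1 was lost, those lower in siStau1 than in siLuc 0 in DMSO (1) and 0 in DAC (4), and those lower in siStau1 DAC against siLuc DMSO 1 (2). Adjusted within each comparison only, 2 were lower with DAC in siLuc, since ASNS then passed at 0.0345, and 0 were lower in siStau1 than in siLuc in DMSO and 0 in DAC. The deposited p-values were the same in both adjustments, and only the set of tests adjusted together differed. Over all genes, calls either way at 0.01 numbered 1395 of 17504 with DAC in siLuc and 667 of 16979 in siStau1. For siStau1 against siLuc they numbered 55 of 15893 in DMSO and 34 of 17263 in DAC. For siStau1 DAC against siLuc DMSO they numbered 514 of 16909. Adjusted within each comparison only, they numbered 2947, 1261, 33, 0 and 714 in that order. With so few calls over all genes, counts of 0 members in siStau1 against siLuc say little about the members. The members' medians kept their sign under every pseudocount, filter, centring and scaling tried, with GC centring moving them most in the 4 main comparisons, by 0.18, 0.16, 0.12 and 0.14. Of 50 values of single genes, GC centring changed the sign of 5, centring on the median of all genes of 2 and rescaling of 2, none of them called. PSAT1 in siStau1 against siLuc under DAC turned under both of the latter. The alternatives for siStau1 DAC against siLuc DMSO were chosen after seeing the data. Without values per library, depth and replicate error limit every statement to the authors' test.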
